A study of Homo sapiens with 6 samples.

Results

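The 10 genes described here encode cytokines, chemokines and feedback inhibitors that NF-kB transcription factors are known to induce, namely IL6, LIF, IL11, CSF2, CXCL8, CXCL1, CXCL2, CXCL3, NFKBIA and TNFAIP3. They were chosen by name as established NF-kB targets, with earlier results of these data known. All 10 had a row among the 15651 genes of the expression table. All 10 also passed the filter on low values, under which 3 or more libraries had to reach a normalized count of 4, and which kept 15246 genes. MDA-MB-231, a widely used human line of triple-negative breast cancer (TNBC), was profiled by RNA sequencing to ask how gene expression changed when the phosphodiesterase PDE7A was inhibited. The 3 control libraries came from cells given the vehicle DMSO and the 3 treated libraries from cells given BRL-50481, a selective inhibitor of PDE7, an enzyme that degrades cyclic AMP. The treatment protocol of the labels gives 50 µM for 72 h, as does the paper for its RNA sequencing. The treatment tag of the labels instead gives 5 µM and 48 h, and the tag of the DMSO cultures gives no time. Both groups were the same unmodified line, and the paper describes the 3 samples of each as biological replicates. The labels only number them, and the p-values measure the spread between these libraries.

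In unstimulated cells, IkB proteins such as the product of NFKBIA hold NF-kB dimers in the cytoplasm. Cytokine receptors and Toll-like receptors activate the IkB kinase (IKK) complex, which marks IkB for degradation, and the freed dimers bind kB sites in the promoters of inflammatory genes. Among these genes are NFKBIA itself and TNFAIP3, which encodes the ubiquitin-editing enzyme A20, and both then switch the pathway off. MDA-MB-231 is known for sustained NF-kB activity and for secreting many of these cytokines without added stimulus.

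The libraries held 30750573 to 33446984 reads on genes. The deposited value of a gene is its read count divided by a size factor of the library, called the normalized count here, and 1 read was worth 0.969 to 1.02 normalized counts. The markers VIM, CD44 and AXL, known to be high in this line, had mean normalized counts of 58840.4, 31414 and 45015 in DMSO. SPARC, the remaining gene of that marker list, was low at 14.0, and PGR, the progesterone receptor, failed the filter. DMSO replicate 1 lay farthest from its group, with a residual SD of 0.141 on the log2 scale against 0.0791 to 0.119 in the other 5 libraries. Deviations from the mean of all libraries rose with transcript length in DMSO replicate 1 (Spearman correlation 0.119) and in the treated libraries (0.131 to 0.175). They fell with length in DMSO replicates 2 (−0.328) and 3 (−0.236), and the cause was not tested. PDE7A mRNA, which reports on the gene and not on whether the inhibitor reached the enzyme, had 406, 405 and 409 normalized counts in the DMSO libraries and 341, 292 and 261 in the BRL-50481 libraries. Its log2 fold change was −0.45 (limma, standard error 0.103, Benjamini-Hochberg adjusted p = 0.00199).

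The promoters of the members are shown with the matches found to 1 consensus of the kB element, after which the pathway is named. RefSeq promoter windows of GRCh38.p14, from 250 bases before to 50 bases after the annotated start of transcription, were found for 9 of the 10 members, and LIF was not matched. The 115 bases before the start are printed 5′ to 3′ on the strand of the gene, with matches to the 10-base kB consensus on either strand in capitals.
CXCL1: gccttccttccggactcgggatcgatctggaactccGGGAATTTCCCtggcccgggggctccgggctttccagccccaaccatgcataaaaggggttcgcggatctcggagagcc
CXCL2: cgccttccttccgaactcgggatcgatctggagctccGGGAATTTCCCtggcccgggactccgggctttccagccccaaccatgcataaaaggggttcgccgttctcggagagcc
CXCL3: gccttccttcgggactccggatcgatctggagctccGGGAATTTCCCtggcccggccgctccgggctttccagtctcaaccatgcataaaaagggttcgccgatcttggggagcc
IL6: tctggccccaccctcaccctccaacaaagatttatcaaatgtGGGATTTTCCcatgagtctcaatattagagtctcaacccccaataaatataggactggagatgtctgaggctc
NFKBIA: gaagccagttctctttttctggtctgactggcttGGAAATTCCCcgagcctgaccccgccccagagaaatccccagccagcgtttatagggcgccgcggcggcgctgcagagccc
The intervals in GRCh38.p14 were chr4:73869278-73869392 (plus strand) for CXCL1, chr4:74099196-74099310 (minus strand) for CXCL2, chr4:74038690-74038804 (minus strand) for CXCL3, chr7:22727085-22727199 (plus strand) for IL6 and chr14:35404750-35404864 (minus strand) for NFKBIA. In CXCL1, CXCL2 and CXCL3 the plus-strand and minus-strand matches overlapped, so that 1 run of capitals covers both, between 79 and 68 bases before the start. The match lay 73 to 64 bases before the start in IL6 and 81 to 72 in NFKBIA. TNFAIP3 held 2 matches, 67 to 58 and 55 to 46 bases before its start. The 3 CXCL windows were alike beyond the kB element, with 94.8% identical bases between CXCL1 and CXCL2, 90.4% between CXCL1 and CXCL3 and 89.6% between CXCL2 and CXCL3.

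The same search found no kB match in the windows of CXCL8, IL11 and CSF2, which are printed for comparison and hold no capitals.
CXCL8: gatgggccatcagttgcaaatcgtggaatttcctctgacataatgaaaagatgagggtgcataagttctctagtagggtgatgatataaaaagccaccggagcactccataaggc
IL11: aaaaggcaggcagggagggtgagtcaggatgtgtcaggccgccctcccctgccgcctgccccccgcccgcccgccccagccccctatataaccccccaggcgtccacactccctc
CSF2: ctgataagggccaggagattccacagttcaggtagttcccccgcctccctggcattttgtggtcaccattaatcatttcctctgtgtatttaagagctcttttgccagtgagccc
These intervals were chr4:73740454-73740568 (plus strand), chr19:55370464-55370578 (minus strand) and chr5:132073674-132073788 (plus strand) in GRCh38.p14. The printed bases of IL6, CXCL8, CXCL2 and CXCL3 reach into the gene intervals given below, from the GENCODE annotation, which start farther upstream. The absence of a match says only that these letters were not found in this window, and sites that differ from the consensus were not searched. In all, 6 of 9 members held a kB match (66.7%), compared with 6.64% of the 10958 promoter windows of tested genes and 5.72% of all 27305 windows. The members were chosen as established NF-kB targets, and the alike windows of CXCL1, CXCL2 and CXCL3 count separately, so their share is a description. The AP-1 site TGANTCA, which reads alike on both strands, was found in CXCL8 (137 to 131 bases before the start) and IL11 (96 to 90), and in 5.07% of tested genes. The core TGACG of the cyclic AMP response element, searched on both strands, was found in 4 of 9 members, IL6, CXCL8, CXCL2 and CXCL3, and in 33.2% of tested genes. The TATA element TATAAA, also searched on both strands, was found in CXCL8 and NFKBIA and in 5.88% of tested genes. The match of CXCL8 lay on the strand of the gene and that of NFKBIA only on the opposite strand. CSF2 held none of the 4 motifs in its window.

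**Figure D1:**
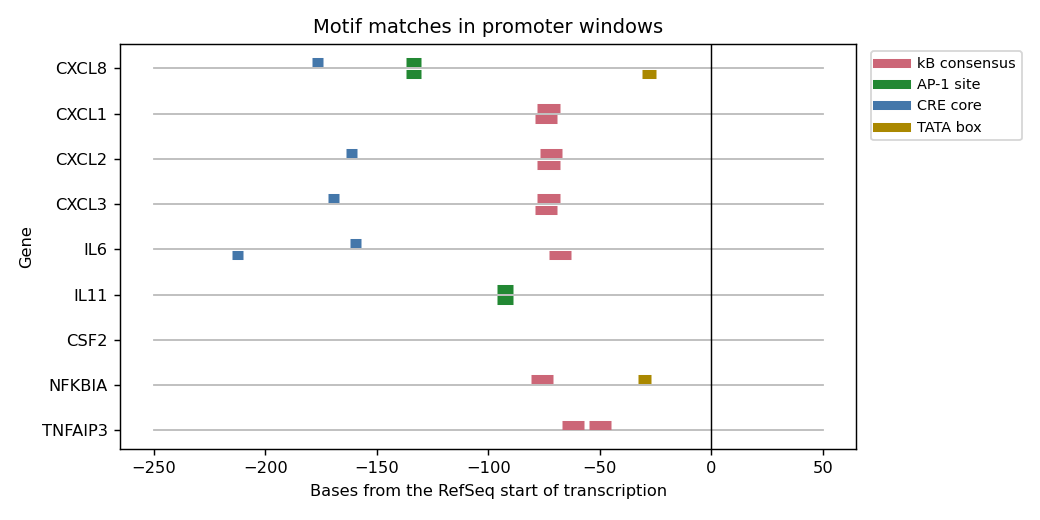
Motif matches in the promoter windows of 9 members, by distance in bases from the RefSeq start of transcription (vertical line). Bars above a gene's line are matches on its own strand and bars below are on the opposite strand for the kB consensus, AP-1 site, CRE core and TATA box, and the kB matches of CXCL1, CXCL2, CXCL3, IL6, NFKBIA and TNFAIP3 all lie between 81 and 46 bases before the start.

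BRL-50481 moved the members in different directions. The 4 chemokines, IL6 and LIF rose, CSF2 and IL11 fell, NFKBIA fell by a small amount and TNFAIP3 did not pass the test. With limma (log2 scale, pseudocount 1) and Benjamini-Hochberg adjustment over the 15246 genes, 9 of the 10 members passed the 0.05 threshold and were called. Of all genes tested, 58.7% were called, so that a call on its own sets a member little apart from other genes. There were 6 members higher, against 28.9% of all genes, and 3 lower, against 29.8%. CXCL1, CXCL2 and CXCL3 rose by over 1 on the log2 scale, as did 5.06% of all genes, and CSF2 fell by over 1, as did 2.98%. The values of the DMSO and BRL-50481 libraries did not overlap in 9 of the 10 members, and in 64.2% of all genes. The median log2 fold change was 0.63 over the members and 0.015 over all genes. In bulk RNA, fewer cells with a transcript and less of it per cell cannot be told apart, and the members were counted with more reads than most genes, at ranks 315 (CXCL8) to 7375 (CXCL3) by mean normalized count.

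**Figure D2:**
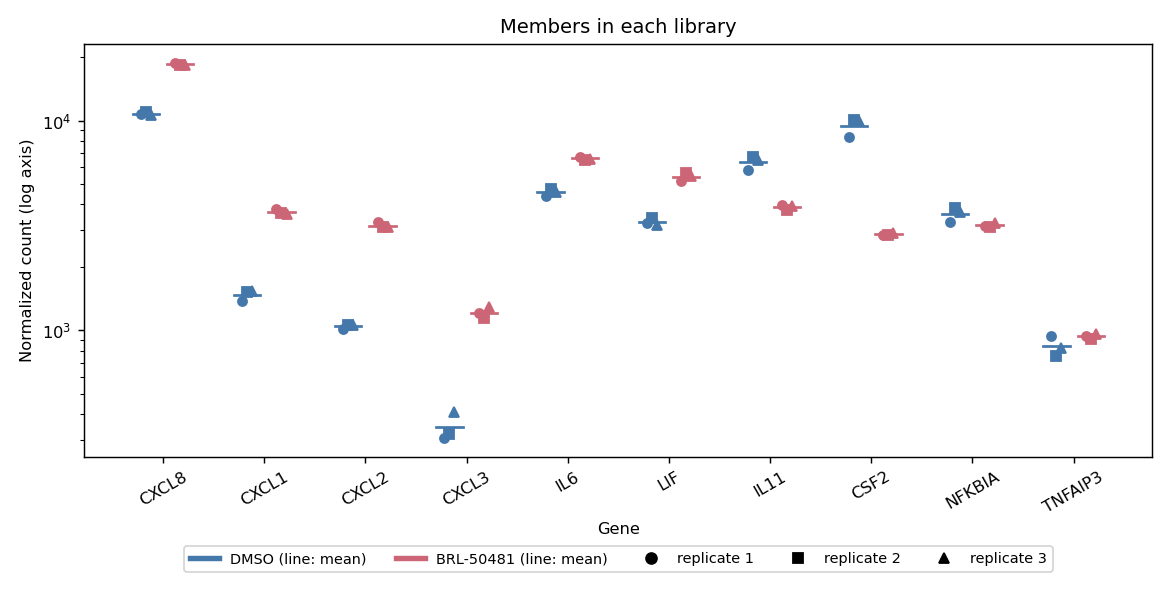
Normalized counts of the 10 members in each library on a log axis, with DMSO in blue and BRL-50481 in red, marker shapes for the replicate number and a line at each group mean. The 3 BRL-50481 libraries lie above all DMSO libraries for the chemokines, IL6 and LIF, below them for IL11, CSF2 and NFKBIA, and overlap with DMSO for TNFAIP3.

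CXCL8, CXCL1, CXCL2 and CXCL3 encode chemokines of the CXC family, which attract neutrophils through the receptors CXCR1 and CXCR2. All 4 genes lie on chromosome 4 of hg38, CXCL8 at 73740519-73743716, CXCL1 at 73869393-73871308, CXCL3 at 74036589-74038807 and CXCL2 at 74097040-74099196 (GENCODE release 44). CXCL8, the most abundant member of this group, had 10776, 10949.7 and 10645 normalized counts in the DMSO libraries and 18869, 18415 and 18341 in the BRL-50481 libraries. The treated libraries were all higher and differed little from each other, and the means were 10790.3 ± 153 and 18541 ± 286 (mean ± SD, n = 3 per group). The log2 fold change of CXCL8 was 0.78 (limma, standard error 0.0421, adjusted p = 1.20e-08).

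CXCL1 had 1385, 1518 and 1536 normalized counts in the DMSO libraries and 3773, 3608 and 3594 in the BRL-50481 libraries. Every treated library exceeded every control, with means of 1479.9 ± 82.6 and 3658 ± 99.6 (mean ± SD, n = 3 per group), a ratio of 2.47. CXCL2 had 1015, 1059 and 1061 normalized counts in the DMSO libraries and 3269, 3101 and 3115 in the BRL-50481 libraries, a ratio of the means of 3.03. The groups were again well apart, and CXCL2 and CSF2 had the smallest adjusted p-values among the members. CXCL3, the least abundant of the group, had 308, 321 and 409 normalized counts in the DMSO libraries and 1216, 1143 and 1287 in the BRL-50481 libraries, a ratio of 3.51. DMSO replicate 3 was the highest control for CXCL3 and still lay below all treated libraries. On the log2 scale the changes were 1.31 (standard error 0.0573) for CXCL1, 1.60 (0.0547) for CXCL2 and 1.82 (0.101) for CXCL3, with limma adjusted p-values of 2.91e-09, 4.93e-10 and 1.59e-08.

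Of the genes tested, 269 changed by more than CXCL3 in either direction, 400 by more than CXCL2, 739 by more than CXCL1 and 2440 by more than CXCL8. Together the 4 chemokines had 13661 ± 182 normalized counts in the controls and 26577 ± 477 after BRL-50481 (mean ± SD, n = 3 per group), 1.95 times as many. The 3 paralogs CXCL1, CXCL2 and CXCL3 made up little of the DMSO sum, at 2871 ± 151, and reached 8036 ± 206 with BRL-50481. Their mRNAs are similar enough to raise the question of shared reads, but few stretches of 76 bases, the read length, occur in more than 1 of them. CXCL1 shared 2 of 1099 stretches with another gene (0.182%), CXCL2 shared 24 of 1040 (2.31%) and CXCL3 shared 22 of 1000 (2.20%), and in each case the other gene was a paralog of the trio. CXCL5 and PF4, which lie between CXCL1 and CXCL3 and were looked up for their position, were close to the detection limit. CXCL5 had 4.65 ± 1.13 and 13.5 ± 6.02 normalized counts (mean ± SD, n = 3 per group, log2 fold change 1.30, limma adjusted p = 0.024), and PF4 had 6.32 ± 2.06 and 10.3 ± 2.57 (adjusted p = 0.224). CXCL6 was not analysed here.

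IL6, LIF and IL11 encode cytokines that signal through the shared receptor subunit gp130, and CSF2 encodes GM-CSF, a growth factor for granulocytes and macrophages. IL6, on chromosome 7 of hg38 at 22725884-22732002, had 4383, 4711 and 4577 normalized counts in the DMSO libraries and 6742, 6497 and 6590.1 in the BRL-50481 libraries. The treated libraries were all higher, with means of 4557 ± 165 and 6609.6 ± 124 (mean ± SD, n = 3 per group) and a log2 fold change of 0.54 (limma, standard error 0.0477, adjusted p = 8.36e-07). LIF, on chromosome 22 at 30240453-30246759, encodes leukemia inhibitory factor. It had 3260.4, 3436 and 3196 normalized counts in the DMSO libraries and 5181, 5601 and 5441 in the BRL-50481 libraries. The groups did not overlap, and the log2 fold change of LIF was 0.71 (limma, standard error 0.0517, adjusted p = 1.41e-07). Exons of IL6 and LIF, and of TNFAIP3, overlap antisense genes on the other strand, which the stated strand-specific counting separates.

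IL11 went the other way from IL6 and LIF. IL11, on chromosome 19 of hg38 at 55364382-55370463, had 5818, 6724 and 6494 normalized counts in the DMSO libraries and 3941, 3762 and 3903 in the BRL-50481 libraries. All treated libraries were lower, with means of 6346 ± 471 and 3869 ± 94.4 (mean ± SD, n = 3 per group) and a log2 fold change of −0.71 (limma, standard error 0.0575, adjusted p = 3.74e-07). CSF2, on chromosome 5 at 132073789-132076170, fell most. It had 8359, 10083 and 9905 normalized counts in the DMSO libraries and 2850.0, 2856 and 2904 in the BRL-50481 libraries. DMSO replicate 1 was the lowest control, and the treated libraries lay close together. The means were 9449 ± 948 and 2869.8 ± 29.7 (mean ± SD, n = 3 per group), a log2 fold change of −1.71 (limma, standard error 0.0652, adjusted p = 1.10e-09), and 332 of the genes tested changed by more. CSF2 and IL11 together went from 15795 ± 1415 to 6739 ± 105 normalized counts (mean ± SD, n = 3 per group), 0.427 times the control level.

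NFKBIA and TNFAIP3, the feedback inhibitors, changed little beside the cytokines and chemokines. NFKBIA, on chromosome 14 of hg38 at 35401079-35404749, had 3273, 3815 and 3665 normalized counts in the DMSO libraries and 3159, 3098 and 3264 in the BRL-50481 libraries. The highest treated library lay just below the lowest control, DMSO replicate 1. The log2 fold change was −0.17 (limma, standard error 0.0605, 95% interval −0.30 to −0.042, adjusted p = 0.0253). NFKBIA lost its call when DMSO replicate 2 (adjusted p = 0.0890), DMSO replicate 3 (0.0939), BRL-50481 replicate 1 (0.0782) or BRL-50481 replicate 2 (0.0986) was left out of the limma fit, and without DMSO replicate 1 its log2 fold change was −0.24. With quantile normalization, median centring or no trend in limma it was also not called, with adjusted p-values of 0.129, 0.0563 and 0.0914.

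TNFAIP3, on chromosome 6 of hg38 at 137867214-137883314, had 939.6, 754 and 821 normalized counts in the DMSO libraries and 942, 913 and 959.6 in the BRL-50481 libraries. DMSO replicate 1 lay among the treated libraries, so the groups overlapped. The log2 fold change was 0.17 (limma, standard error 0.0808, 95% interval −0.0069 to 0.34, adjusted p = 0.0913), an interval that excludes a rise as large as those of IL6 or the chemokines. Without DMSO replicate 1 the log2 fold change of TNFAIP3 was 0.25 and passed the test (limma, adjusted p = 0.00105), as it did with quantile normalization (0.21) and median centring (0.20). Without DMSO replicate 2 it was 0.094 (adjusted p = 0.318). After correction of each library for transcript length and GC content it was 0.077.

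**Figure D3:**
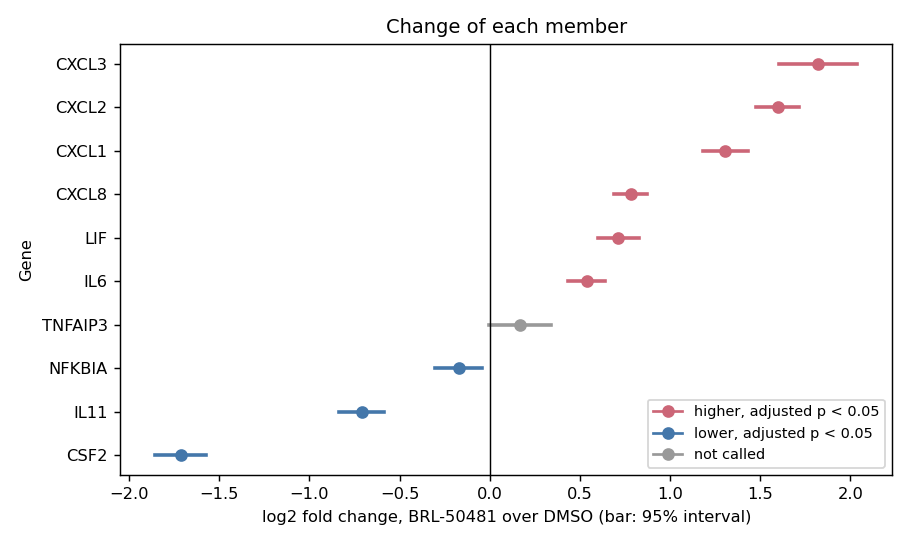
Log2 fold change of each member in BRL-50481 over DMSO with its 95% interval from limma, in red where called higher, blue where called lower and grey where not called. The changes run from −1.71 (CSF2) to 1.82 (CXCL3), and only the interval of TNFAIP3 includes 0.

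A two-sided exact permutation test over the libraries gave p = 0.1 for each of the 9 members whose groups did not overlap, the smallest p that 3 libraries against 3 allow, and p = 0.2 for TNFAIP3. The other 8 members were called in the same direction in all 18 alternative fits, 6 of which left out a library each. DMSO replicate 1 deviated from the mean of its group by −0.17 on the log2 scale in CSF2, −0.16 in CXCL3, −0.13 in NFKBIA and −0.12 in IL11, and by 0.17 in TNFAIP3. Without that library the log2 fold changes were −1.80 for CSF2 and −0.77 for IL11.

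Divided by transcript length, CSF2 was the most abundant member in DMSO, at 11991 ± 1203 normalized counts per kilobase (SD, n = 3). CXCL8 (6571 ± 93.2) and IL6 (4043 ± 146) followed. The next in order, IL11 (2668 ± 198) and NFKBIA (2299 ± 179.5), overlapped between libraries. CXCL1 (1261 ± 70.3), CXCL2 (937 ± 23.4) and LIF (852 ± 32.1) came next, and CXCL3 (322 ± 51.0) and TNFAIP3 (179.7 ± 20.1) were lowest. With BRL-50481 the order of these per-kilobase levels was CXCL8 (11292 ± 174), IL6 (5865 ± 109.8), CSF2 (3642 ± 37.7), CXCL1 (3116 ± 84.8), CXCL2 (2836 ± 83.3), NFKBIA (2036 ± 53.6), IL11 (1627 ± 39.7), LIF (1397 ± 54.9), CXCL3 (1131 ± 67.0) and TNFAIP3 (201 ± 5.10). CSF2 and IL11 thus moved down the order, and no neighbours in the treated order overlapped between libraries. Over all 10 members the summed normalized counts, which are not divided by length, were 41733 ± 1991 in the controls and 49445 ± 475 after treatment (mean ± SD, n = 3 per group), a ratio of 1.18.

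Ratios between members were compared within each library, since a scaling of the library cancels in them. Of the 7 pairs compared, 6 had ratios that did not overlap between the groups. The log2 ratio of CXCL1 to CXCL2 was 0.45, 0.52 and 0.53 in DMSO and 0.21, 0.22 and 0.21 in BRL-50481, a difference of −0.29, so that CXCL2 rose by more than CXCL1. The difference was −0.51 for CXCL1 to CXCL3, and for CXCL2 to CXCL3 it was −0.22 with overlapping groups (two-sided exact permutation test, p = 0.3). CXCL8 rose by less than CXCL1, with a difference of −0.53 in their log2 ratio. It was −0.18 for IL6 to LIF and −0.24 for IL6 to CXCL8, so that IL6 rose by less than either. The ratio of NFKBIA to TNFAIP3 fell by 0.34 on the log2 scale, though DMSO replicate 1 (1.80) lay close to the treated libraries (1.74, 1.76 and 1.76). The 6 pairs without overlap had p = 0.1 in the two-sided exact permutation test and a Benjamini-Hochberg adjusted p of 0.117 over the 7 pairs, which the design cannot bring under 0.05.

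**Figure D4:**
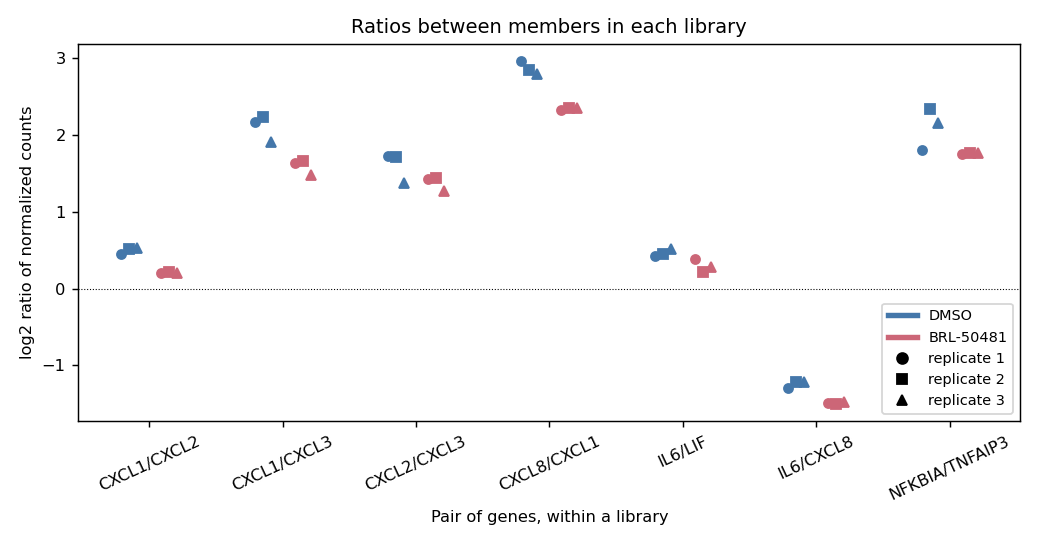
Log2 ratios of normalized counts between 7 pairs of members within each library, with DMSO in blue, BRL-50481 in red and marker shapes for the replicate number. The treated libraries lie below the DMSO libraries in every pair but CXCL2 to CXCL3, and the NFKBIA to TNFAIP3 ratio of DMSO replicate 1, at 1.80, is nearest to the treated ones.

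The other genes of the pathway were taken as 11 lists, which share some genes. They were written from general knowledge, with earlier results of these data known. Of the 124 genes tested in these lists, 55 were higher, 30 were lower and 39 did not pass, with a median log2 fold change of 0.104. Over all genes 28.9% were higher and 29.8% lower, and the counts of the single lists, several of which lie near these shares, are given as descriptions. The 5 genes of NF-kB subunits had 2 higher, 1 lower and 2 not called. NFKB1, which encodes p50 and its precursor, rose (log2 fold change 0.43, limma adjusted p = 2.58e-05). RELA, which encodes the main activating subunit p65, fell by 0.17 and was not called without DMSO replicate 2 (−0.14), BRL-50481 replicate 1 (−0.15) or BRL-50481 replicate 3 (−0.16), nor with quantile normalization (−0.13) or without a trend in limma (adjusted p = 0.0629). REL was higher (0.62), but DMSO replicate 1 had 636 normalized counts, near the 612 to 655 of the treated libraries, against 315 and 359 in the other DMSO libraries. Without DMSO replicate 3 (0.51) or BRL-50481 replicate 1 (0.61) the change of REL was not called, nor was it with DESeq2 (0.55, adjusted p = 0.129) or without a trend in limma (adjusted p = 0.103), and it was 0.37 after the correction for length and GC content. The change of NFKB2, the most abundant subunit gene, was 0.022 (adjusted p = 0.739).

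The 6 other genes of IkB proteins and relatives moved apart, 2 higher, 2 lower and 2 not called. NFKBIZ, which encodes a nuclear IkB protein that assists the induction of a subset of NF-kB targets, rose, from 1056 ± 71.0 to 2102 ± 84.9 normalized counts (mean ± SD, n = 3 per group), which is a log2 difference of 0.99. IKBKE, a kinase gene related to the IKK genes and kept in this list, rose by 1.11, from 704 ± 45.4 to 1519 ± 105.6 normalized counts. NFKBIB, which encodes IkB beta, fell from 1718 ± 145.8 to 814 ± 43.6 normalized counts, a log2 fold change of −1.07 (limma adjusted p = 9.61e-08). NFKBIE had −0.045 (adjusted p = 0.544). Among the 20 genes of the IKK complex and upstream signalling, 8 were higher, 6 lower and 6 not called. The 2 catalytic IKK genes changed in opposite directions, CHUK by −0.73 and IKBKB by 0.62, while TAB2, an adaptor of the kinase TAK1, rose (0.52) and IRAK1, a kinase of the interleukin-1 and Toll-like receptor pathways, fell (−0.44).

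Of 15 activating ligands and receptors, 6 were higher, 3 lower and 6 not called. IL1A, which encodes the cytokine interleukin-1 alpha, had 8062, 8527 and 8486 normalized counts in the DMSO libraries and 16207, 15556 and 15426 in the BRL-50481 libraries, a log2 fold change of 0.91 with no overlap. Its receptor gene IL1R1 rose by 0.97 and TLR3, a sensor of double-stranded RNA, by 0.79. Of the 13 other negative feedback genes, 8 were higher, 3 lower and 2 not called, with a median log2 fold change of 0.35. TRAF1 (0.99) and BIRC3 (0.67), which encode adaptor and ubiquitin ligase proteins of TNF receptor signalling, rose. SQSTM1, the autophagy receptor p62 and the most abundant of the list, fell by 0.77. NFKBIA and TNFAIP3 were not counted in that list.

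The other NF-kB cytokines and chemokines, 20 genes tested, held 13 higher, 3 lower and 4 not called, with a median log2 fold change of 0.62, close to the 0.63 of the members. With DESeq2 11 of them were called higher, and with median centring 14. In the main fit 5 rose by over 1 and 2 fell by over 1, as did 5.06% and 2.98% of all genes. Of the 5, CXCL5, CXCL11 and CCL5 had few reads, with DMSO means of 4.65, 15.3 and 25.6 normalized counts. CSF3, which encodes G-CSF, had 243, 261 and 241 normalized counts in the DMSO libraries and 1210.1, 1301 and 1157 in the BRL-50481 libraries, a log2 fold change of 2.30 (limma, standard error 0.0781, adjusted p = 4.93e-10), whereas CSF2 fell. CCL20, a chemokine for lymphocytes and dendritic cells, rose by 1.25, and CXCL16 fell by 1.17. CSF1, the most abundant gene of the list, had 17611 ± 431 and 18849.9 ± 748 normalized counts (mean ± SD, n = 3 per group), which was not called (0.098, adjusted p = 0.0841), but was called higher without DMSO replicate 1 (0.087) and with quantile normalization (0.18), median centring (0.13) or the length and GC correction (0.077).

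The 20 other NF-kB target genes had 9 higher, 4 lower and 7 not called. VCAM1, an adhesion molecule for leukocytes, went from 144 ± 5.46 to 708 ± 27.5 normalized counts (mean ± SD, n = 3 per group), which is a log2 difference of 2.29. BCL2A1, an inhibitor of apoptosis, rose by 2.08 and PTGS2, the cyclooxygenase COX-2, by 1.20. IER3, the most abundant gene of the list, had a log2 fold change of −0.031 (limma adjusted p = 0.684) and was called lower without DMSO replicate 1 (−0.11).

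**Figure D5:**
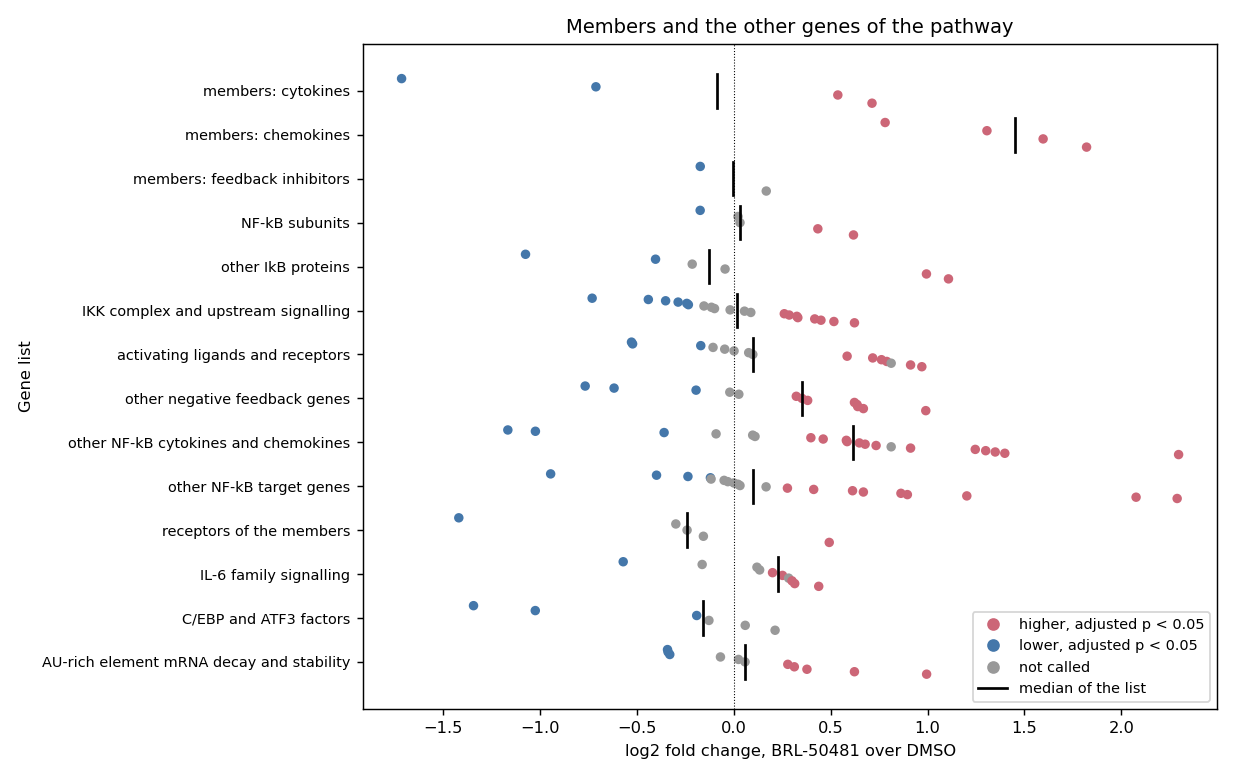
Log2 fold change of each gene of the members and of 11 lists of pathway genes, BRL-50481 over DMSO, in red where called higher, blue where called lower and grey where not called, with a vertical bar at the median of each list. The medians lie at 1.45 for the member chemokines, 0.62 for the other NF-kB cytokines and chemokines and 0.032 for the NF-kB subunits.

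Of the receptors of the members, 5 genes were tested, 1 higher, 1 lower and 3 not called, and CXCR1, CXCR2 and CSF2RB were not analysed here. IL6R, which encodes the IL-6 binding subunit, had 297, 265 and 252 normalized counts in the DMSO libraries and 91.6, 102 and 109.5 in the BRL-50481 libraries, a log2 fold change of −1.42 (limma, standard error 0.121, adjusted p = 6.06e-07). IL6ST, which encodes gp130, rose by 0.49, and by 0.28 after the correction for length and GC content. Of 10 genes of IL-6 family signalling, 5 were higher, 1 lower and 4 not called. SOCS3, a feedback inhibitor of gp130 signalling, fell by 0.57. JAK2 rose by 0.44, but by 0.24 and without a call when DMSO replicate 2 was left out, and it was also not called without BRL-50481 replicate 1 (0.44) or BRL-50481 replicate 3 (0.39), with quantile normalization (0.36), with the length and GC correction (0.27) or without a trend in limma (adjusted p = 0.0907). PTPN11, the most abundant gene of that list, had −0.16 and was not called, but was called lower without DMSO replicate 2 (−0.24) and with the length and GC correction (−0.31). Without DMSO replicate 1 its change was −0.064.

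The C/EBP family and ATF3 are transcription factors that act with NF-kB on cytokine promoters, and of 6 such genes 3 were lower and 3 not called. ATF3, a stress-induced factor that represses several cytokine genes, fell from 3650.4 ± 104 to 1794 ± 27.2 normalized counts (mean ± SD, n = 3 per group), which is a log2 difference of −1.02 (limma adjusted p = 6.46e-09). DDIT3 fell by 0.19 and was not called without DMSO replicate 3 (−0.17) or BRL-50481 replicate 2 (−0.18), nor with quantile normalization (−0.14) or without a trend in limma (adjusted p = 0.0579). CEBPG had 0.059 (adjusted p = 0.323). Proteins that bind AU-rich elements and related structures set the half-life of many cytokine mRNAs, and of their 11 genes 5 were higher, 3 lower and 3 not called. ZC3H12A, which encodes the ribonuclease Regnase-1, rose by 0.62, ZFP36L1, which encodes a decay factor, by 0.31 and HNRNPD, which encodes AUF1, by 0.38. The 3 genes called lower were ZFP36 (−0.34), KHSRP (−0.34) and ELAVL1 (−0.33). RC3H2, which encodes Roquin-2, was higher by 0.99, with 1202 normalized counts in DMSO replicate 1 against 532 and 693 in the other DMSO libraries and 1467 to 1606 in the treated ones.

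Over the 6 libraries, the genes whose log2 values followed CXCL8 most closely were GOLGA1 (Pearson r = 0.9997), PRDM8 (0.9993) and TPX2 (0.9993), among 12241 genes searched. For NFKBIA they were NT5C3B (0.997), BAG1 (0.995) and PSMG4 (0.994). The libraries fall into 2 treatment groups, which the genes share, so that these values are a description of the 6 libraries.

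All libraries came from cultures of the MDA-MB-231 line, and genes known as markers of other cells were followed as a description. Of 6 immune markers, PTPRC, CD3E and MS4A1 had no row among the genes of the expression table. CD14, CD68 and LYZ were analysed, and their summed normalized counts were 3746 to 4305 in the controls and 5343 to 5653 after treatment. CD68, a lysosomal protein gene, made up most of that sum and rose by 0.51 on the log2 scale, LYZ had 5.88 to 13.3 and 24.2 to 34.2 normalized counts, and CD14 was not called. The fibroblast markers summed to 312 to 371 in the controls and 319 to 372 after treatment, with PDGFRA at 0 in 1 DMSO library. Of the endothelial markers, CDH5 was at 0 in DMSO replicate 1, had at most 2.04 normalized counts in the controls and 4.85 to 15.1 after treatment, and was called higher (limma adjusted p = 0.0104), and PECAM1 rose by 0.48 on the log2 scale. The luminal epithelial markers, mostly KRT8, summed to 6757 to 8147 and 8654 to 9003. Among them, CDH1 rose by 1.39 on the log2 scale, from 38.2 to 99.8 mean normalized counts, and EPCAM fell by 0.16. The part of these markers in the changes of the members was not tested.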

How the data were processed

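RNA sequencing of 6 libraries was analysed, 3 DMSO and 3 BRL-50481, grouped by their labels. The authors aligned single-end reads to hg38 with STAR 2.7.1a, counted them per gene in reverse-strand mode with HTSeq on the UCSC annotation and normalized them with DESeq2 1.28. The deposited signal is the read count of a gene divided by the size factor of its library. The log2 fold changes, test score and p-values that the authors deposited were not used. The labels give oligo-dT selection in one place and ribosomal RNA depletion in another.

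The members and gene lists were chosen with earlier results of these data known. The values were compared with limma 3.58.1 (R 4.3.3, empirical Bayes with a mean trend), after adding a pseudocount of 1 and taking log2, with the group as the only term. In every library, dividing by the value of 1 read gave whole numbers for 100% of genes (tolerance 1e-06), and edgeR 4.0.16 and DESeq2 1.42.0 were run on the recovered reads as alternatives, calling 4358 and 4097 genes higher and 4574 and 4356 lower. In 3 libraries the value of 1 read lies within 0.01 of 1, where a separate automatic test of whole reads could not be applied, so the count tests serve only as alternatives. Tested on simulated data for this comparison (15246 genes), limma found 99 of 100 changes of 1 and 89 of 100 changes of 0.5 on the log2 scale, and called 19 of 15046 unchanged genes. Only these changes were simulated, in genes with a mean of at least 50 reads, whereas 58.7% of genes were called in the data. The rate of false calls therefore need not carry over. The other alternatives changed the pseudocount (0.5 and 4) or the filter (none, or a mean of at least 20), or used quantile normalization, median centring, no trend, the replicate number as a block, a loess correction (span 0.5) for transcript length and GC content, and leaving out each library.

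The genes named are the members, PDE7A, and in each list the 3 largest changes among called genes with a mean of at least 50 and the most abundant gene, with the 3 genes of highest Pearson r to CXCL8 and to NFKBIA. CXCL5, PF4, CXCL11, CCL5, ZFP36, KHSRP, ELAVL1 and the marker genes were named beyond this rule. Gene positions and lengths are those of GENCODE release 44 on hg38, found for 90.8% of genes, and promoters are from RefSeq (GRCh38.p14). One gene that this rule names is not reported here, and protein sequences were not used here.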

Additional observations from a re-analysis of the deposited data

How the results depend on the processing

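The changes of the 8 cytokines and chemokines kept their direction and call in all 18 alternatives, and the member ratios kept their direction with other pseudocounts and with each library dropped. NFKBIA and TNFAIP3 did not keep their calls, so that 6 or 7 members were higher and 2 or 3 lower. Of the genes named from the lists, 4 reversed, none of them called in the comparison reported. Over the fits that each dropped 1 library, the change ran (log2 scale) from −0.017 to 0.051 for NFKB2, from −0.099 to 0.0039 for NFKBIE and from −0.11 to 0.020 for IER3. With quantile normalization it was 0.017 for NFKBIE and 0.13 for IER3. With the length and GC correction, with or without the replicate block, it was 0.0075 for NFKBIE, 0.031 for IER3 and −0.023 for CEBPG. The cause was not tested. Libraries with the same replicate number deviated together only weakly (r = 0.121, 0.104 and 0.0514, across 12251 genes). Those with different numbers had r from −0.159 to 0.0607, mostly below 0. BRL-50481 replicate 3 correlated better with DMSO replicate 2 (0.0607) than with DMSO replicate 3, so the numbers were not taken as pairs. With the replicate block, 6 members were higher and 3 lower, and of all genes 4440 were higher and 4589 lower, and with the length and GC correction added 3916 and 5189. The block changed the call of PTPN11, which was then lower (−0.16, limma adjusted p = 0.0317). With 3 libraries a group, the 95% interval of TNFAIP3 ran from just below 0 to 0.34 on the log2 scale, and genes with few reads, such as CXCL5 and PF4, gave wide errors.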
